A study of Mus musculus with 4 samples.

Results

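Lysosome and cathepsin genes were followed across the leukocytes of the mouse salivary gland, with and without the growth factor GM-CSF. The set holds 43 genes of the 26033 features measured. It is a fixed list of symbols, drawn up with earlier results of these data known, and each symbol matched 1 feature. By role it comprises 10 cysteine proteases, 2 other cathepsins, 7 membrane proteins, 12 hydrolases and other luminal proteins, 11 subunits of the proton pump and 1 transcription factor. The cells were sorted for CD45, the surface marker of leukocytes, from salivary gland tissue of 20-day-old mice, whose strain the labels give as C56BL/6. Csf2 encodes GM-CSF, and mice with 1 intact Csf2 allele (Csf2+/-) were compared with mice that had none (Csf2-/-). Each genotype had 1 female and 1 male library, each pooled from 2 mice, so n = 2 libraries per genotype and the spread within a genotype includes the difference between the sexes. Both groups carry a Csf2 mutation, since no wild-type library is in the comparison, and p-values measure the spread between these pools.

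The lysosome is the acidic compartment in which cells break down material taken up from outside or delivered by autophagy. A vacuolar proton pump, built of a membrane V0 sector and a cytosolic V1 sector, acidifies it, and the cathepsins and other hydrolases work at that low pH. Macrophages are rich in lysosomes because they take up and digest dying cells, and in dendritic cells the cysteine proteases also process antigen for MHC class II. Many lysosomal genes are targets of the transcription factor TFEB, which binds an E-box named the CLEAR element, so the promoters of the set are shown first.

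RefSeq windows of 300 bases (build GRCm38.p6, 250 bases before the start to 50 after it) were at hand for 35 of the 43 genes, and Ctsb, Ctsh, Npc1, Asah1, Atp6v0d2, Atp6v1b2, Atp6v1c1 and Atp6v1h had none. The letters CACGTG, the core of the E-box, which read the same on both strands, were found in 13 of these 35 genes (37.1%), against 2187 of all 27025 genes with a window (8.09%). The longer form TCACGTGA, which contains the core, was found in 6 of the 35 (17.1%), namely Ctsa, Ctsd, Mcoln1, Gla, Atp6v0d1 and Atp6v1a, against 1.12% of all genes. The palindrome of 10 letters that adds 1 base to each side of TCACGTGA (G before and C after) was found in 0 of the 35, against 0.370% of all genes. A match is a description of the letters and not of binding. The stretches of 3 genes are printed 5′ to 3′ on the gene's strand, cut before the first annotated exon, with the core in capitals. Atp6v1a and Atp6v0b are pump subunits, and Lamp1 has the most cores of the set, 4. Between genotypes, Atp6v1a had a log2 change of -0.25 (SE 0.08) in macrophage-like cells and Atp6v0b one near 0, of 0.03 (SE 0.09). Neither was called.
Atp6v1a (chr16:44139306-44139409, minus strand): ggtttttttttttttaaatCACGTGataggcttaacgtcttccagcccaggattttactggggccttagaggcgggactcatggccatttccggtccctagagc
Atp6v0b (chr4:117887334-117887479, minus strand): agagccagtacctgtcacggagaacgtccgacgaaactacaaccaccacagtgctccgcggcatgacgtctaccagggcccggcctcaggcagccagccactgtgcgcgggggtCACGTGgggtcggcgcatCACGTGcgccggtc
Lamp1 (chr8:13159011-13159160, plus strand): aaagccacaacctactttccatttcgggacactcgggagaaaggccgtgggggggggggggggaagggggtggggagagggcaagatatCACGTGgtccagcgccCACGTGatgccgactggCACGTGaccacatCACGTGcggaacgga
The cores begin 131 bases before the start in Atp6v1a, 36 and 18 bases before it in Atp6v0b, and between 61 and 15 bases before it in Lamp1.

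The 4 libraries held between 111981802 and 122366588 unique molecular identifiers (UMIs, which count RNA molecules) in 9322 to 10090 cell barcodes, and 34196 cells were kept. Cell types were rebuilt here from marker genes, are written X-like, and may not be those the study used. Any 2 libraries shared between 20 and 38 barcodes. Csf2 itself fitted the labels: in ILC2-like cells it stood at 126 and 140 UMIs per 1000000 (CPM) in the Csf2+/- female and male libraries and at 6.74 and 5.88 CPM in the Csf2-/- female and male libraries. Levels are CPM of the UMIs summed per library and cell type, where each 3′ tag counts 1 molecule, so values of different genes need no division by length. Values of 4 libraries are given throughout in the order Csf2+/- female, Csf2+/- male, Csf2-/- female, Csf2-/- male.

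Lysosomal RNA was most abundant in macrophage-like cells and their relatives. The 43 genes summed to 18465 ± 706 CPM (SD, n = 4 libraries) in macrophage-like cells, 1.85% of all UMIs, and to 16024 ± 1251 CPM in a myeloid cluster led by Retnla and Fn1. Classical monocyte-like cells followed with 15778 ± 437 CPM. The dendritic types were lower, from 8113 ± 408 CPM in cDC1-like to 9444 ± 605 CPM in cDC2-like cells, apart from plasmacytoid (pDC-like) cells with 13360 ± 1179 CPM. B-like cells had 4016 ± 138 CPM and ILC2-like cells 2328 ± 54.3 CPM, the lowest of the 17 types compared. Mast-like cells reached 18376 ± 1781 CPM, but they had few UMIs per cell. The macrophage genes C1qb and Ms4a7 were among their leading genes, and the part of macrophage RNA in them was not tested. The 11 pump genes summed to 2397 ± 113 CPM in macrophage-like, 2348 ± 112 in neutrophil-like and 2277 ± 57.3 in classical monocyte-like cells, which overlapped between libraries, and to 569 ± 11.8 CPM in ILC2-like cells. Differences between cell types are given as descriptions, with no test.

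**Figure D1:**
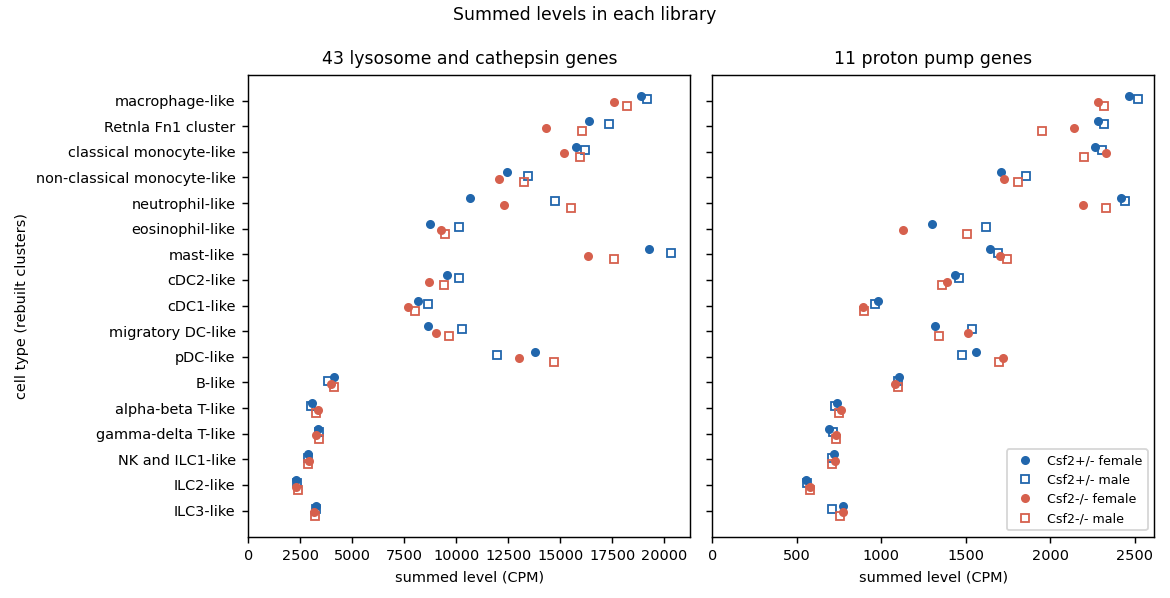
Summed level in CPM of the 43 genes (left) and of the 11 proton pump genes (right) in each cell type, 1 point per library, filled circles female and open squares male, blue Csf2+/- and red Csf2-/-. Macrophage-like cells lie near 18465 CPM for the set, and every lymphoid library at or under 4140 CPM.

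Which type had the highest level differed from gene to gene. Macrophage-like cells were highest for 10 of 43 genes, pDC-like cells for 7, the Retnla Fn1 cluster for 5, and mast-like, neutrophil-like and eosinophil-like cells for 4 each. The remaining 9 genes peaked in migratory DC-like, classical or non-classical monocyte-like, B-like or ILC2-like cells. Mast-like values here and below carry the limit given above, as the part of macrophage RNA in them was not tested. For 12 genes the libraries of the highest type did not overlap those of the next. In macrophage-like cells 26 genes stood at more than 2 times the highest lymphoid type and 5 at more than 10 times it, while 5 genes were lower than in some lymphoid type. As a measure of free RNA, Cd68, a membrane glycoprotein of macrophage lysosomes, stood at 427 ± 20.7 CPM in macrophage-like cells and at 4.65 to 12.2 CPM in the 6 lymphoid types.

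**Figure D2:**
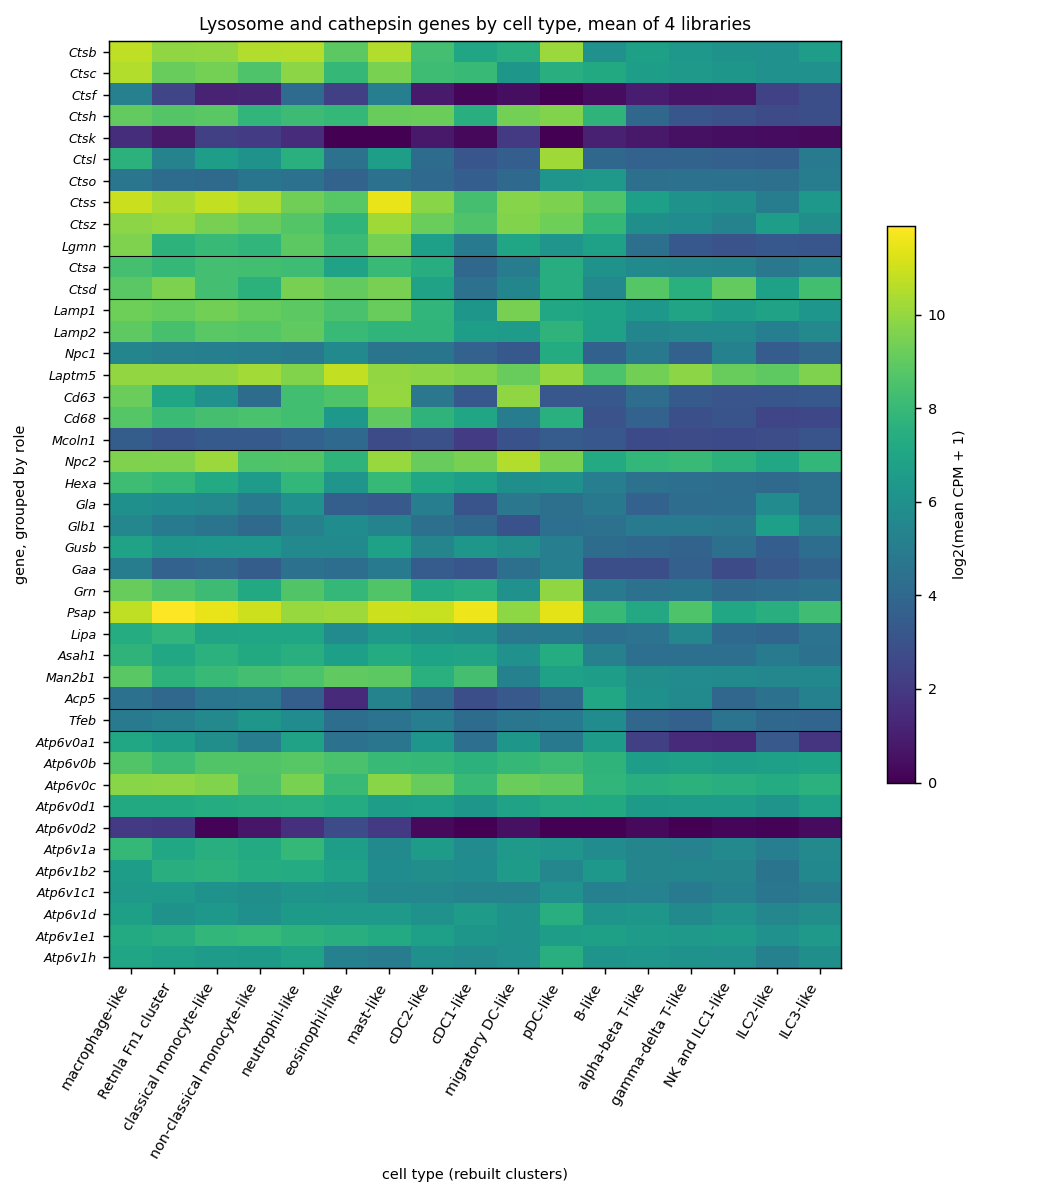
Mean CPM of 4 libraries for each gene (rows, grouped by role, black lines between roles) in each of 17 cell types (columns), coloured by log2(mean CPM + 1). Ctsl is bright in pDC-like cells (1183 CPM) and Psap is brightest in the Retnla Fn1 cluster (3812 CPM).

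Among the cysteine proteases, macrophage-like cells led for Ctsb, Ctsc, Ctsf and Lgmn. Ctsb, a broadly acting endo- and exopeptidase, stood there at 1723 ± 162 CPM (SD, n = 4), and Ctsc, which activates granule proteases by removing dipeptides, at 1455 ± 159 CPM. Lgmn, the asparaginyl endopeptidase that cuts other cathepsins to their mature form, stood at 743, 830, 728 and 789 CPM in macrophage-like cells, above every library of the next type, mast-like cells, whose highest was 722 CPM. Ctss, the main protease of the MHC class II invariant chain in dendritic cells and macrophages, was the most abundant protease of the set at 1966 ± 251 CPM in macrophage-like and 2859 ± 236 CPM in mast-like cells. Ctsl showed another pattern. Ctsl stood at 1344, 1056, 1199 and 1133 CPM in the 107 pDC-like cells, against 203, 210, 198 and 186 CPM in macrophage-like cells, the next type, and was the only gene of the set whose highest type was more than 5 times the next. Its libraries did not overlap between those types. Ctsh, an aminopeptidase, was also highest in pDC-like cells, at 803 ± 87.2 CPM, with overlap with migratory DC-like cells at 679 CPM. Ctsz, a carboxypeptidase, peaked in mast-like cells at 1183 ± 116 CPM. For Lgmn, Ctss and Ctsz, the part of macrophage RNA in the mast-like values was not tested. Ctso, for which B-like cells were highest, stood at 86.0 ± 11.6 CPM there. Ctsk, the bone collagenase of osteoclasts, was near the floor everywhere, with its highest mean of 3.74 ± 1.05 CPM in classical monocyte-like cells.

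The aspartic protease Ctsd was highest in the Retnla Fn1 cluster, at 737 ± 141 CPM, and was not a myeloid marker in this tissue: NK and ILC1-like cells had 529 ± 13.1 CPM, above the 466 ± 49.6 CPM that Ctsd had in macrophage-like cells. The serine carboxypeptidase Ctsa, which also protects other lysosomal enzymes, was at 338 ± 18.5 CPM in macrophage-like cells and overlapped both monocyte types.

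Membrane proteins peaked in several different types. Laptm5, a membrane protein of haematopoietic lysosomes, had means from 371 CPM (B-like) to 922 CPM (gamma-delta T-like) in the lymphoid types and reached 1776 ± 205 CPM in eosinophil-like cells, a type with few UMIs per cell. Lamp1, a main glycoprotein of the lysosomal membrane, peaked in migratory DC-like cells at 707 ± 75.9 CPM, and Lamp2, its relative with a role in autophagy, in neutrophil-like cells at 508 CPM with macrophage-like cells at 498 CPM. Cd63, a tetraspanin of late endosomes, was high in mast-like (1038 ± 120 CPM), migratory DC-like (961 ± 77.7 CPM) and macrophage-like cells (570 ± 14.1 CPM), against 64.3 CPM in classical monocyte-like and 25.7 CPM in cDC2-like cells. Npc1, which exports cholesterol from lysosomes, stood at 186, 138, 134 and 179 CPM in pDC-like cells, against 48.5 CPM in the next type, and its soluble partner Npc2 at 1474 ± 101 CPM in migratory DC-like cells, with no overlap with the next type in either case. Mcoln1, a calcium channel of the lysosome, was low throughout, and its highest mean was 15.8 CPM in eosinophil-like cells.

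Of the luminal proteins, Psap, the precursor of the saposins that present sphingolipids to hydrolases, was the most abundant gene of the set. Psap stood at 4009, 4609, 2778 and 3851 CPM in the Retnla Fn1 cluster, at 3063 ± 373 CPM in cDC1-like cells and at 1711 ± 176 CPM in macrophage-like cells. Grn, the progranulin precursor, was at 957 ± 134 CPM in pDC-like and 567 ± 63.5 CPM in macrophage-like cells, without overlap. Lipa, the acid lipase that frees cholesterol from its esters, was at 230 ± 5.62 CPM in the Retnla Fn1 cluster against 166 CPM in macrophage-like cells, again without overlap. Hexa, a subunit of the ganglioside-cutting hexosaminidase, Gusb, the beta-glucuronidase, and Asah1, the acid ceramidase, were highest in macrophage-like cells at 297, 113 and 210 CPM. Gaa, which cuts glycogen, was highest in pDC-like cells at 33.7 CPM, Gla, the alpha-galactosidase, in neutrophil-like cells at 63.7 CPM, and Man2b1, the alpha-mannosidase, in eosinophil-like cells at 508 CPM. Lymphoid cells led for a pair of enzymes: Glb1, the beta-galactosidase, stood at 104 ± 20.4 CPM in ILC2-like cells against 45.1 CPM in macrophage-like cells, and Acp5, the tartrate-resistant acid phosphatase known from osteoclasts, at 140 ± 22.7 CPM in B-like cells against 20.4 CPM in macrophage-like cells. Neither overlapped the libraries of the next type.

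In the pump, Atp6v0c, the proteolipid that forms most of the membrane ring, was the most abundant subunit, at 891 ± 38.4 CPM in macrophage-like cells and 901 ± 26.3 CPM in the Retnla Fn1 cluster. Atp6v0a1, an a subunit of the V0 sector, stood at 134 ± 10.8 CPM in macrophage-like, 95.0 ± 4.30 in B-like, 8.87 ± 0.71 in ILC2-like and 1.51 ± 0.23 CPM in NK and ILC1-like cells. Atp6v1a, the catalytic subunit, was highest in macrophage-like cells at 242 ± 25.8 CPM, and its partner Atp6v1b2 in classical monocyte-like cells at 197 ± 18.4 CPM. Atp6v1d and Atp6v1h, a stalk and a regulatory subunit of V1, were highest in pDC-like cells at 183 ± 23.5 and 174 ± 5.86 CPM, Atp6v1e1, another stalk subunit, in non-classical monocyte-like cells at 251 CPM, and Atp6v1c1 in the Retnla Fn1 cluster at 82.3 CPM. Atp6v0b, a further ring subunit, and Atp6v0d1, which joins the ring to V1, were highest in neutrophil-like cells at 444 and 185 CPM. Atp6v0d2, the d subunit of osteoclasts and some macrophages, had a highest mean of only 5.49 CPM. Tfeb itself was highest in non-classical monocyte-like cells at 78.5 ± 13.4 CPM and stood at 30.0 ± 2.30 CPM in macrophage-like cells. The pDC-like and neutrophil-like values rest on 18 to 62 cells per library, and epithelial markers summed to 19254 CPM in the pDC-like cells of the Csf2+/- male library against 513 to 1426 CPM in the other 3.

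Between genotypes, macrophage-like cells showed small and mostly same-signed differences, of which none passed the test. The 1179 to 1625 macrophage-like cells per library were summed and tested with edgeR's quasi-likelihood test at a Benjamini-Hochberg adjusted p of 0.05. All 43 genes passed the filter on low counts and 0 were called, as were 0 of 12828 genes (0%). At an unadjusted p under 0.05 there were 9 of the 43, all lower in Csf2-/-, and 1335 of all genes (10.4%), and DESeq2 called 0 of the 43 and 45 of all genes (0.351%). The log2 change was below 0 for 40 of 43 genes, against 50% of all genes, with a median of -0.13 against -0.00 over all genes, and the count ran from 36 to 42 over the alternatives. By plain CPM, 39 of 43 had a lower mean in Csf2-/-. Both Csf2-/- libraries lay below both Csf2+/- libraries for 23 genes (16.1% of all genes) and above them for 1, Atp6v0b (24.9% of all genes).

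The pump held the larger part of the low p-values, 6 of the 9. Of its 11 subunits 9 were lower in both Csf2-/- libraries than in both Csf2+/- libraries (16.1% of all genes), and its median log2 change was -0.23. Summed, the subunits stood at 2467, 2517, 2285 and 2316 CPM, so the genotypes did not overlap. Atp6v1c1, the V1 stalk subunit that moves when the pump comes apart, stood at 89.6, 93.6, 68.6 and 75.9 CPM, a log2 change of -0.38 (SE 0.07, edgeR adjusted p = 0.258). Atp6v1b2, at 101, 118, 85.1 and 92.6 CPM, changed by -0.34 (SE 0.08, edgeR adjusted p = 0.322). Both were lower in each Csf2-/- library, and neither was called. Atp6v1h (138, 144, 114 and 127 CPM), Atp6v1a (243, 276, 214 and 234 CPM), Atp6v0a1 (142, 144, 121 and 130 CPM), Atp6v0d1 (155, 165, 138 and 143 CPM) and Atp6v1d (113, 111, 103 and 103 CPM) had log2 changes from -0.28 to -0.17, with edgeR adjusted p-values from 0.329 to 0.502. In every one of these the Csf2-/- libraries were the lower pair. The exceptions were Atp6v0b and Atp6v0d2. Atp6v0b stood at 395, 393, 423 and 405 CPM with both Csf2-/- libraries above, but its log2 change was near 0 (0.03, SE 0.09, edgeR adjusted p = 0.934). Atp6v0d2 stood at 2.86, 2.76, 2.82 and 3.81 CPM, where the genotypes overlapped.

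Outside the pump the lowest p-values belonged to Hexa, Npc1 and Psap. Hexa stood at 298, 340, 259 and 288 CPM (log2 change -0.27, SE 0.08, edgeR adjusted p = 0.379). Npc1 stood at 45.8, 44.1, 38.2 and 37.8 CPM (log2 change -0.29, SE 0.10, edgeR adjusted p = 0.384). Psap stood at 1833, 1889, 1533 and 1588 CPM, 1.23-fold lower in Csf2-/- (log2 change -0.30, SE 0.10, edgeR adjusted p = 0.397). All 3 had both Csf2-/- libraries below both Csf2+/- libraries. The cysteine proteases had a median log2 change of -0.13, as did the whole set, with 4 of 10 genes not overlapping in the lower direction (16.1% of all genes). The lowest log2 change of the 43 genes was that of Ctsk, at 2.29, 2.24, 1.65 and 1.43 CPM (-0.60, SE 0.29, edgeR adjusted p = 0.514), a gene with 124 UMIs in all. The highest of these proteases by level, Ctss at 2233, 1799, 2120 and 1710 CPM, followed sex more than genotype, as both female libraries were the higher ones. Tfeb, at 33.1, 30.3, 28.2 and 28.2 CPM, was lower in both Csf2-/- libraries (log2 change -0.21, edgeR adjusted p = 0.537).

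**Figure D3:**
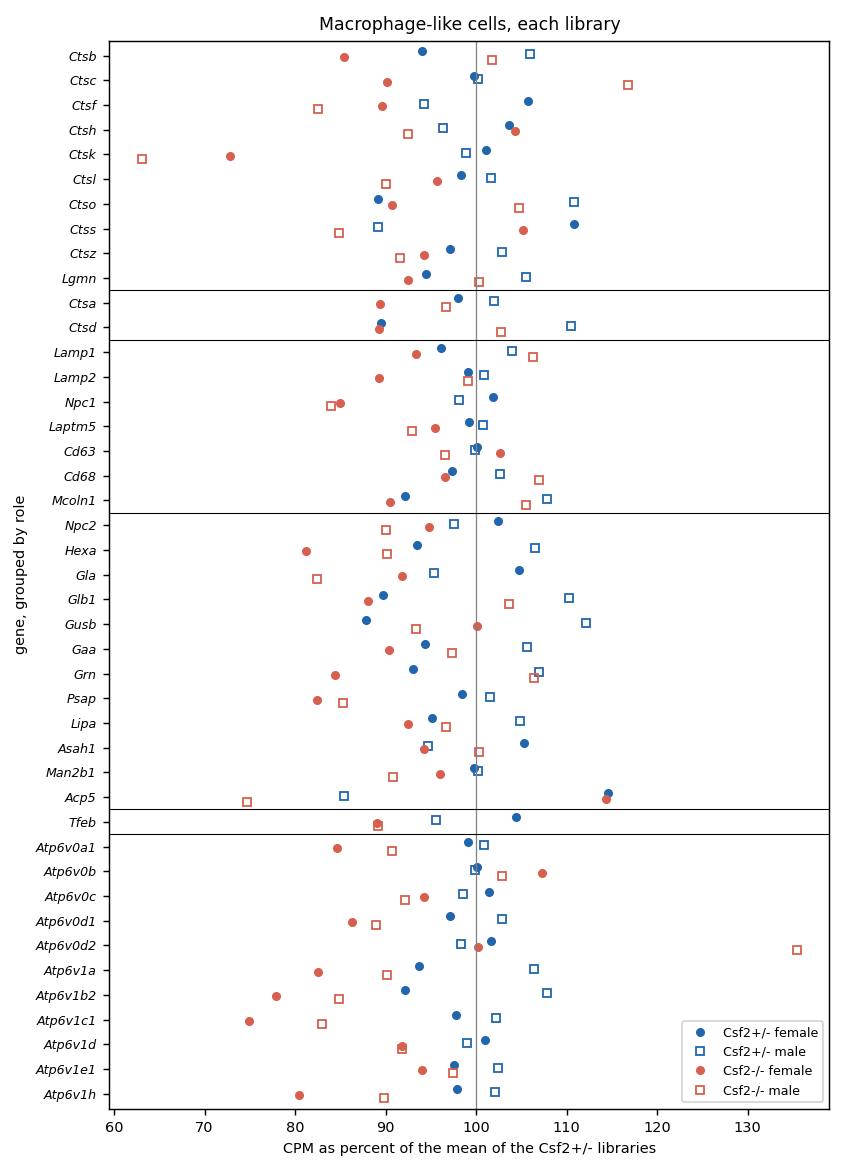
Level of each of the 43 genes in macrophage-like cells of each library, as a percent of the mean of the Csf2+/- libraries (grey line at 100), filled circles female and open squares male, blue Csf2+/- and red Csf2-/-. Red points lie left of blue points for 9 of the 11 pump subunits in the lowest block.

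The call in macrophage-like cells depended on single libraries and on how sex was treated. With sex as a block edgeR called 3 genes, all lower in Csf2-/-: Atp6v1c1 (adjusted p = 0.0177), Atp6v1b2 (0.0274) and Psap (0.0396), beside 324 of all genes (2.53%). Atp6v1c1 was also called without the Csf2-/- female library (log2 change -0.35) and without the Csf2-/- male library (-0.41). In these fits the lone library is taken to vary like the other genotype. Without the female library many more of all genes were called too, and the share without the male library is not given. Markers of lymphocytes moved in the same cells: all 17 had log2 changes above 0, with a median of 0.70, 0 were called, and they summed to 279, 414, 612 and 552 CPM, with Bcl11b, a T cell transcription factor, and Icos having the lowest p-values. In the same cells Fn1 stood at 30.9, 21.7, 6.11 and 5.45 CPM and Retnla at 421, 177, 151 and 97.6 CPM, both lower in each Csf2-/- library and neither called. The part of these markers in the result was not tested.

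The same direction was seen within the tested clusters of macrophage-like cells. Clusters 31 and 37, with 43 to 88 and 26 to 33 cells per library, fell under the minimum of 50 and were not tested. The tested ones were cluster 4, led by Il1a, Fat3 and Plau, cluster 6, led by Folr2, Pf4 and Lyve1, and cluster 16, led by Pf4, Lyve1 and Mrc1. To these come cluster 24 of dividing cells and cluster 25 of cells with few UMIs. EdgeR called 0 genes of the set in each (all genes called: 0.533%, 0.0378%, 0.205%, 0.0108% and 0%), with 13, 9, 6, 4 and 1 at an unadjusted p under 0.05 (all genes: 10.2%, 14.3%, 8.19%, 5.95% and 4.38%), and DESeq2 called 0 in each (all genes: 0.275%, 0.246%, 0.137%, 0.0108% and 0%). Log2 changes were below 0 for 37 of 41 genes in cluster 4, 32 of 43 in cluster 6, 39 of 42 in cluster 16, 30 of 41 in cluster 24 and 24 of 35 in cluster 25 (all genes: 49.8%, 49.3%, 50.3%, 50.6% and 50.2%), with medians of -0.16, -0.10, -0.23, -0.07 and -0.14. For the 35 genes tested in all 5 clusters, the mean of the 5 changes, which gives each cluster the same weight in every library, was below 0 for 33 and had a median of -0.12. All 5 changes were below 0 for 12 genes, among them Atp6v0d1, Atp6v1b2, Atp6v1c1, Atp6v1d and Atp6v1h, and the share of all genes with this pattern is not given. Cluster 4 made up 41.9%, 36.6%, 41.0% and 29.0% of macrophage-like cells in the 4 libraries and cluster 6 made up 29.7%, 32.6%, 27.1% and 37.5%, so both shares overlapped between genotypes.

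In the Retnla Fn1 cluster 2 pump subunits were called lower in Csf2-/-. This cluster had 267, 328, 71 and 47 cells in the 4 libraries, so it was tested at a minimum of 40 cells per library in place of 50, a choice made after the data were seen. Atp6v1b2 stood at 216, 240, 147 and 90.6 CPM, 1.81-fold lower (log2 change -0.85, SE 0.17, edgeR adjusted p = 0.0268). Atp6v0d1 stood at 175, 183, 123 and 111 CPM, 1.49-fold lower (log2 change -0.57, SE 0.13, edgeR adjusted p = 0.0321). In both genes the 2 Csf2-/- libraries lay below the 2 Csf2+/- libraries. These were 2 of 42 genes tested, beside 2.5% of all genes in either direction and 1.43% in the lower one, and 21 of the 42 did not overlap in the lower direction (26.3% of all genes). Atp6v0d2 stood at 5.36, 4.91, 0.767 and 0 CPM, from 55 UMIs in all, and was not called (edgeR adjusted p = 0.107).

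Other genes in that cluster moved both ways without a call. Ctsd stood at 805, 898, 586 and 658 CPM (log2 change -0.42, SE 0.11, edgeR adjusted p = 0.0581) and Grn at 429, 447, 325 and 342 CPM (log2 change -0.36, edgeR adjusted p = 0.111). Cd68 was in the other direction, at 247, 226, 291 and 329 CPM (log2 change 0.42, SE 0.12, edgeR adjusted p = 0.0933), as were Ctss and Lgmn, with log2 changes of 0.31 and 0.30. None of these overlapped between genotypes. The genes that name the cluster differed too, with Fn1 at 2554, 3054, 1449 and 1554 CPM and Retnla at 11667, 9191, 4930 and 2990 CPM, and the immediate early genes Ier2, Jun and Fos were called higher in Csf2-/-. Lymphocyte markers summed to 243, 260, 705 and 184 CPM there, with Gata3 and Icos called higher. Their part in the calls, and whether these cells are the same kind in both genotypes, was not tested. Atp6v0d1 was not called without the Csf2+/- female library (log2 change -0.61, adjusted p = 0.0871) or the Csf2+/- male library (-0.57, adjusted p = 0.134), neither gene was called with sex as a block, and Atp6v1b2 was called without any single library, with log2 changes from -1.30 to -0.61.

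More genes of the set were called in cDC2-like cells, the dendritic cells that present antigen mainly to CD4 T cells. Psap and the pump subunits Atp6v0a1 and Atp6v1b2 were called lower in Csf2-/- and Acp5 higher, 4 of 40 genes tested, beside 4.24% of all genes (2.76% lower, 1.48% higher). Psap stood at 2170, 2539, 1365 and 1665 CPM, 1.54-fold lower (log2 change -0.62, SE 0.10, edgeR adjusted p = 0.0110). Acp5 stood at 11.8, 11.5, 22.1 and 23.2 CPM, 1.95-fold higher (log2 change 0.97, SE 0.16, edgeR adjusted p = 0.00228). Atp6v0a1 stood at 85.5, 85.6, 66.7 and 64.4 CPM, with a log2 change of -0.37 (SE 0.09, edgeR adjusted p = 0.0251), and Atp6v1b2 at 67.8, 66.6, 44.0 and 55.5 CPM, with -0.42 (SE 0.11, edgeR adjusted p = 0.0423). In each of the 4 genes the genotypes did not overlap.

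The other 36 genes tested in cDC2-like cells had 18 log2 changes below 0, with 9 not overlapping in the lower and 10 in the higher direction. Over all 40, log2 changes were below 0 for 21 of 40 genes (48.9% of all genes), and 12 did not overlap in the lower and 11 in the higher direction (24.3% and 22.5% of all genes). Of the pump 8 of 10 subunits were below 0 (6 of 8 without the called ones), and of the cysteine proteases 6 of 8 were above 0 and a median of 0.20. Among the latter Ctsh stood at 560, 537, 626 and 635 CPM (log2 change 0.21, edgeR adjusted p = 0.153), Lgmn at 93.3, 97.2, 106 and 117 CPM (0.24, edgeR adjusted p = 0.159) and Ctss at 859, 797, 878 and 986 CPM (0.18, edgeR adjusted p = 0.251). These did not overlap between genotypes and were not called. Ctsc went the other way, at 307, 333, 240 and 286 CPM (log2 change -0.28, edgeR adjusted p = 0.123).

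**Figure D4:**
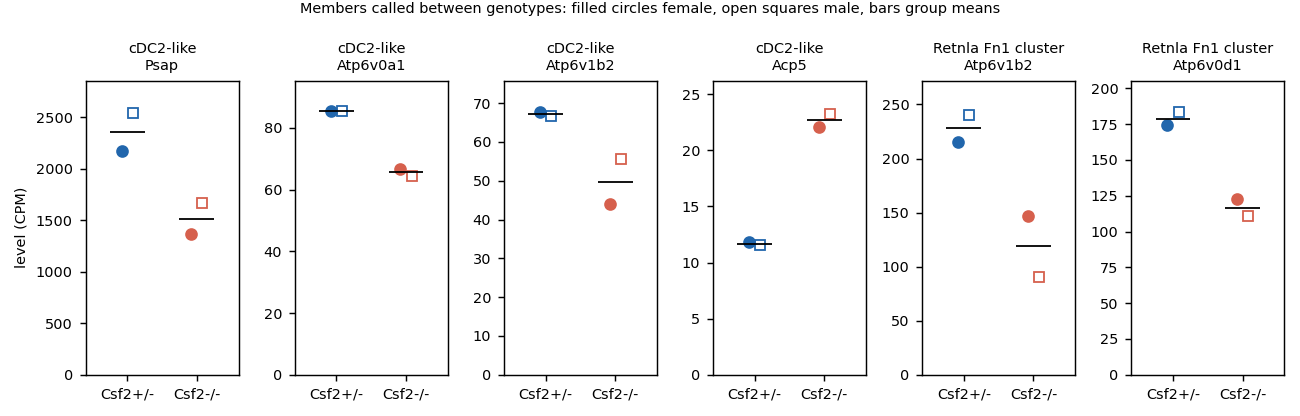
Level in CPM of the called genes in each library, cDC2-like cells in the first 4 panels and the Retnla Fn1 cluster in the last 2, filled circles female, open squares male, bars the mean of each genotype, axes from 0. Psap falls from 2170 and 2539 CPM to 1365 and 1665 CPM and Acp5 rises from 11.8 and 11.5 CPM to 22.1 and 23.2 CPM.

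Other markers moved with these calls in cDC2-like cells. Retnla stood at 229, 229, 18.3 and 9.47 CPM and Fn1 at 147, 216, 37.9 and 81.5 CPM, and both lead the cluster in which Psap was most abundant. The class joined cluster 9 and the dividing cluster 27, and in the Csf2+/- libraries Retnla was higher in the latter and in the Csf2-/- libraries in the former, at 606, 684, 1.12 and 4.49 CPM in cluster 27 and 54.7, 47.0, 25.5 and 10.9 CPM in cluster 9. Within cluster 9 alone Psap stood at 2227, 2534, 1386 and 1701 CPM, Atp6v0a1 at 85.3, 81.9, 72.3 and 69.1 CPM and Acp5 at 12.6, 11.6, 25.7 and 25.9 CPM, so these 3 did not overlap, while Atp6v1b2 at 65.4, 53.7, 46.6 and 55.1 CPM did. Cluster 9 was looked at alone after the data were seen, with no test. Lymphocyte markers summed to 255, 331, 494 and 324 CPM, with 4 of 17 called higher (Cd79b, Ms4a4b, Icos and Gata3) and Il1rl1 lower, and Acp5 was most abundant in B-like and alpha-beta T-like cells. Cd79b, a B cell receptor chain, stood at 5.92, 5.76, 11.4 and 11.6 CPM, and the part of lymphocyte RNA in the Acp5 value was not tested. Epithelial markers summed to 464, 671, 1698 and 420 CPM and dissociation stress genes to 17859, 17057, 21683 and 17525 CPM, highest in the Csf2-/- female library, with Epcam and Ier2 called higher, and their part was not tested.

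Leaving out libraries changed some of these calls. Acp5 was called in each of the 11 alternatives run in cDC2-like cells. Psap was called in 10, and not without the Csf2+/- male library (log2 change -0.52, adjusted p = 0.114). Atp6v0a1 was called in 7, and was lost without the Csf2+/- female (adjusted p = 0.161), the Csf2+/- male (0.156) or the Csf2-/- male library (0.100) and by DESeq2 (0.197). Atp6v1b2 was called in 5 and was lost, among others, without the Csf2+/- female (adjusted p = 0.260), the Csf2+/- male (0.215) or the Csf2-/- female library (0.328), where its log2 change lay between -0.44 and -0.27.

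In the other types edgeR and DESeq2 called 0 genes of the set, where DESeq2 called 0.498% of all genes in cDC1-like, 0.141% in classical monocyte-like, 0% in non-classical monocyte-like, 0.226% in migratory DC-like and 0% in eosinophil-like cells. In cDC1-like cells, which cross-present antigen to CD8 T cells, 39 genes were tested (all genes called: 1.18%) and 7 (17.9%) had an unadjusted p under 0.05, 5 of them lower, against 11.8% of all genes. Psap stood there at 3127, 3547, 2670 and 2909 CPM (log2 change -0.28, SE 0.08, edgeR adjusted p = 0.132), Atp6v0a1 at 24.9, 22.0, 13.7 and 15.7 CPM (-0.69, SE 0.24, edgeR adjusted p = 0.204) and Atp6v1b2 at 64.1, 57.8, 52.6 and 41.3 CPM (-0.41, SE 0.16, edgeR adjusted p = 0.297). The genotypes did not overlap in any of the 3. Acp5 stood at 3.16, 4.74, 10.98 and 5.84 CPM and did not overlap either (edgeR adjusted p = 0.377).

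The monocyte types differed in their counts, and that difference was not tested. Classical monocyte-like cells had 22 of 41 genes below 0 (50.4% of all genes) with a median of -0.02 and 0 genes at an unadjusted p under 0.05 (10.4% of all genes; all genes called: 0.109%). Non-classical monocyte-like cells, the patrolling kind, had 26 of 40 below 0 (49.8% of all genes) with 6 at an unadjusted p under 0.05 (7.77% of all genes; all genes called: 0.148%). Lgmn was lowest by p there, at 248, 265, 202 and 186 CPM (log2 change -0.40, SE 0.12, edgeR adjusted p = 0.279), followed by Atp6v0a1 at 34.4, 41.0, 23.1 and 24.2 CPM (-0.67, SE 0.24, edgeR adjusted p = 0.428). Both were lower in each Csf2-/- library. Of the 6, Ctsc and Ctsh had log2 changes above 0 (0.31 and 0.25), and the rest were below 0. Migratory DC-like cells had 21 of 40 below 0 (48.9% of all genes) and 2 (5%) at an unadjusted p under 0.05 (8.80% of all genes, with 0.106% of all genes called). These were Atp6v1a (log2 change -0.45) and Atp6v0b (0.28). Eosinophil-like cells, with a median of 662.5 to 815 UMIs per cell, had 12 of 23 below 0 (50.2% of all genes). There 2 (8.70%) were at that p (7.93% of all genes, with 0.102% of all genes called), Lgmn (log2 change 0.97) and Cd63 (-0.65).

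**Figure D5:**
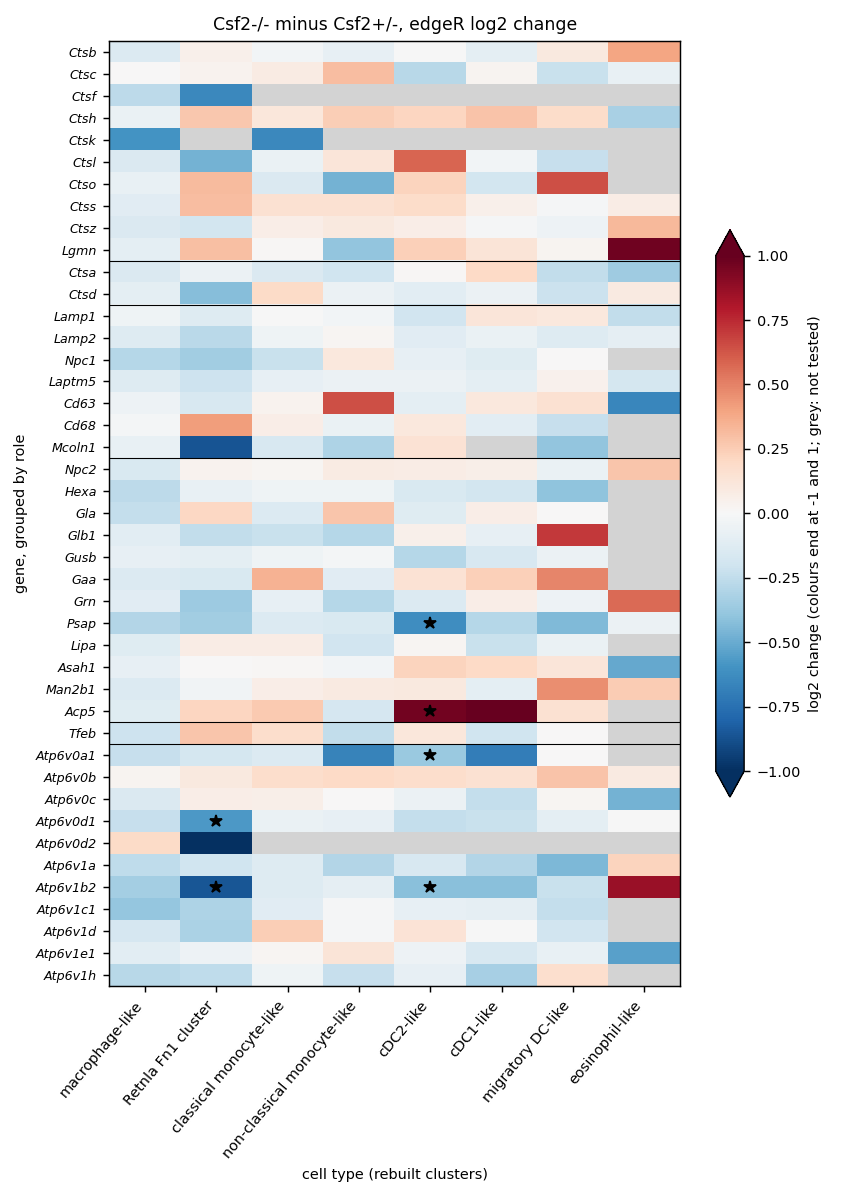
EdgeR log2 change, Csf2-/- minus Csf2+/-, of each gene (rows, grouped by role) in 8 cell types (columns), red higher and blue lower in Csf2-/-, grey not tested, stars for an adjusted p under 0.05. The macrophage-like column is blue for 40 of 43 genes, and the 6 stars lie in the cDC2-like and Retnla Fn1 columns.

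Some genes kept 1 sign across types, which come from the same 4 pairs of pooled glands and are not independent. Psap and Atp6v0d1 were below 0 in all 8 types tested, with log2 changes from -0.62 to -0.06 and from -0.57 to -0.01. Atp6v1c1, Hexa and Gusb were below 0 in all 7 types in which they were tested, with highest values near 0, of -0.01, -0.04 and -0.02. The share of all genes that keep 1 sign across types is not given. Atp6v0b was above 0 in all 8, from 0.03 to 0.28. Its neighbours in the V0 ring did not share this: Atp6v0c was below 0 in 4 of 8. Atp6v1b2, called lower in cDC2-like cells and the Retnla Fn1 cluster, was below 0 in 7 of 8. In eosinophil-like cells Atp6v1b2 went the other way, at 67.5, 85.5, 147 and 138 CPM (log2 change 0.87, SE 0.47, edgeR adjusted p = 0.711).

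The difference of the genotype effect between types was tested as well. Between macrophage-like and cDC2-like cells edgeR called 0 of 43 genes (all genes called: 0.93%), with 7 (16.3%) at an unadjusted p under 0.05 against 12.6% of all genes, and Acp5 had the lowest p (difference of log2 changes -1.10, adjusted p = 0.123). Between macrophage-like cells and the Retnla Fn1 cluster 1 of 43 was called (all genes called: 1.85%): Ctsd, whose log2 change was 0.45 higher in macrophage-like cells (SE 0.11, edgeR adjusted p = 0.0358). Leaving out any 1 of the 4 libraries ended that call, with differences from 0.32 to 0.52 and adjusted p-values from 0.109 to 1.

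In the lists given here, most further lysosomal genes outside the set had changes below 0 in macrophage-like cells too, beside 50% of all genes. Other pump subunits and the TFEB family and Rag list came nearest to that share. The counts below 0 of other cathepsins and of cathepsin inhibitors are not given. In macrophage-like cells 24 of 30 other hydrolases, 19 of 25 other membrane proteins, 18 of 22 autophagy genes, 14 of 19 genes of sorting to the lysosome, 12 of 18 genes of the TFEB family and Rag signalling and 7 of 12 other pump subunits had log2 changes below 0, with 0 calls in any list and medians from -0.11 to -0.03. Fnip2, which acts with folliculin on the Rag GTPases at the lysosome surface, had the lowest p of these, at 78.3, 91.2, 56.3 and 63.8 CPM (log2 change -0.54, SE 0.09, edgeR adjusted p = 0.241). Fnip2 was called lower in macrophage cluster 4 (log2 change -0.50, edgeR adjusted p = 0.0297, 1 of 18 genes of its list, beside 0.533% of all genes) and in cDC1-like cells (-0.67, edgeR adjusted p = 0.0104, 1 of 16, beside 1.18% of all genes). In cDC2-like cells Ids, the iduronate sulfatase, and the membrane proteins Sidt2 and Cd164 were called lower, 1 of 29 other hydrolases and 2 of 23 other membrane proteins tested, beside 2.76% of all genes. Sidt2 stood there at 30.4, 29.0, 16.8 and 18.8 CPM (log2 change -0.73, SE 0.14, edgeR adjusted p = 0.00734). Sidt2 and Cd164 were called lower in the Retnla Fn1 cluster too (2 of 24 tested, beside 1.43% of all genes), with log2 changes of -0.85 and -0.75, as was 1 of 29 other hydrolases, Pld3, a lysosomal exonuclease, at 89.7, 87.7, 47.6 and 34.5 CPM (-1.03, SE 0.18, edgeR adjusted p = 0.00548). Of the inhibitors and receptors that handle cathepsins, Serpinb1a, an inhibitor of serine proteases, rose in cDC2-like cells (10.9, 12.8, 22.1 and 28.0 CPM, edgeR adjusted p = 0.00130), 1 of 6 inhibitors tested beside 1.48% of all genes. In cDC1-like cells Cst3, the cathepsin inhibitor cystatin C, fell from 24104 and 25519 to 21057 and 19428 CPM (edgeR adjusted p = 0.0490, 1 of 5 inhibitors), and Igf2r, the receptor that carries new hydrolases to the lysosome, fell from 57.0 and 58.2 to 36.6 and 25.2 CPM (edgeR adjusted p = 0.0169, 1 of 18 sorting genes). Both counts stand beside 1.18% of all genes called there in either direction.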

How the data were processed

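Single cells were profiled by droplet 3′ RNA-seq in 4 libraries. The authors deposited whole-number UMI counts per gene and barcode, made with Cell Ranger 7.0.0 on GRCm39, per the submitters' processing notes. Barcodes under 500 UMIs or 300 genes, or over 10% mitochondrial UMIs, were dropped. Scrublet marked doublets at its automatic threshold in the Csf2-/- male library (12.9%) and at the expected share in the other 3, where the automatic threshold marked under 0.5%. Cells were clustered (3000 variable genes without lysosomal genes, 40 components, 15 neighbours, Leiden resolution 1.5) into 44 clusters, named from marker lists. Counts were summed per library and cell type, scaled to CPM and tested with edgeR 4.0.16 in R 4.3.3 (quasi-likelihood, TMM, filterByExpr, Benjamini-Hochberg 0.05 over all genes tested) in types with at least 50 cells in every library. DESeq2, sex as a block, no filter, each library left out, doublets kept, a minimum of 1000 UMIs, a 5% mitochondrial limit, another resolution and lysosomal genes kept were alternatives. On simulated data with 200 changed genes, edgeR recovered 179 with 4 false calls among 12828 genes in macrophage-like cells, and 165 with 8 among 10899 in cDC2-like cells. The changed genes had a median estimated log2 change of 0.998 in size in macrophage-like and 0.988 in cDC2-like cells. Recovery of smaller changes, such as the median of -0.13 of the set in macrophage-like cells, was not simulated. Named genes were members called in a type, the 10 lowest by p in macrophage-like cells, the highest of each role by level and those peaking in another type or at 5 times the next, and, in the wider lists, up to 3 called per direction and type and up to 2 by p per list in macrophage-like cells. Other members named for a low p were picked after their values were seen. The members and lists were chosen with earlier results of these data known.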

Additional observations from a re-analysis of the deposited data

Results flagged for a closer look

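The genotype effect on Ctsd differed between macrophage-like cells and the Retnla Fn1 cluster, by a test of the difference itself. The log2 change was 0.45 higher in macrophage-like cells (SE 0.11, edgeR interaction term, adjusted p = 0.0358). Ctsd stood at 426, 525, 425 and 489 CPM in macrophage-like cells, where the genotypes overlapped, and at 805, 898, 586 and 658 CPM in the Retnla Fn1 cluster, where they did not. The call was lost without any 1 of the 4 libraries, and both types come from the same libraries.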

How the results depend on the processing

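Each genotype has 1 female and 1 male pool, so the spread is known from 2 libraries a group, and an exact permutation test of 1 gene could not go below 0.33. Where a library is left out, the lone library is assumed to vary like the other genotype. No direction reversed: 125 counts of genes of the set stayed within 1.5 times the main count and 34 did not. Those 125 include types with a main count of 0. Of the single-gene values 178 stayed called or stayed uncalled, 5 gained a call and 21 lost it. Most of the 178 were macrophage-like values with no call in the main fit to keep. Without a filter on low counts edgeR called 1 gene of the set in cDC1-like cells, 6 in the Retnla Fn1 cluster, 1 in macrophage cluster 16, 3 in cluster 6 and 2 in each difference between types. With sex as a replicate block it called 3 in macrophage-like cells, 3 in cluster 6, 2 in each difference between types and 0 in the Retnla Fn1 cluster. For the clusters and the differences between types the shares of all genes at these settings are not given. Their counts therefore have no background. The labels name no litter or animal shared by the same-sex pools, and the female-minus-male differences of the genotypes correlated at 0.28 in macrophage-like, 0.11 in cDC2-like and 0.04 in Retnla Fn1 cells, across genes, which are not independent. DESeq2 called 2 in cDC2-like cells and 1 in the Retnla Fn1 cluster, which had 1 with lysosomal genes kept for clustering and 16 at resolution 0.8. That cluster was picked anew in each clustering by its Retnla and Fn1 level, so its cells may differ. Shares of all genes called in those clusterings are not given, so the 1 and the 16 have no background. With 1 library left out the counts ran from 0 to 1 in macrophage-like, cDC1-like and migratory DC-like cells and cluster 6, 1 to 4 in cDC2-like and Retnla Fn1 cells, 0 to 2 in cluster 4, 0 to 3 in cluster 16, 0 to 5 for macrophage-like minus cDC2-like and 0 to 2 for macrophage-like minus Retnla Fn1. Over all genes, macrophage-like calls went from 0 to 45 (DESeq2), 47 (no filter), 324 (block) and 619 (without the Csf2-/- female library), cDC2-like calls from 462 to 258, 821, 788 and 502, and Retnla Fn1 calls from 240 to 123, 631, 44 and 413. Elsewhere they went from 10 to between 7 and 146 in classical and 12 to between 0 and 99 in non-classical monocyte-like cells, 107 to between 45 and 336 in cDC1-like, 8 to between 8 and 164 in migratory DC-like and 2 to between 0 and 13 in eosinophil-like cells.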
